A study of Capsicum annuum and Capsicum annuum
Solanum lycopersicum with 48 samples.

Results

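Of the 30088 pepper genes measured in the pepper self-graft, 152 were higher at 3 days after grafting (DAG) than at 1 DAG and stayed near that level at 5 DAG. These 152 genes, the members, are described here in the self-graft and in both heterografts with tomato. They were chosen from self-graft values alone. A member had at least 5 FPKM at 3 and at 5 DAG, was at least 4-fold higher at both times than at 1 DAG, and differed by less than 2-fold between 3 and 5 DAG, with 1 FPKM added to every value before a ratio was taken. FPKM is the number of sequenced fragments per gene, normalised for gene length and library size. The self-graft pattern of the members is therefore fixed by the choice and is given as a description, while the heterograft values took no part in it. One member carries a joint identifier, for a pair of gene models that the table reports together.

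Graft junctions holding tissue of both scion and stock were harvested at 1, 3 and 5 DAG from 3 grafts, named as scion:stock, which were tomato grafted onto pepper (tomato:pepper), pepper grafted onto tomato (pepper:tomato) and pepper grafted onto itself (the pepper self-graft). Pepper was Capsicum annuum var. Big Dipper and tomato was Solanum lycopersicum var. M82. Each group stood for 4 independent junctions, so that 9 groups and 36 of the 48 samples of the series are used, without the tomato self-graft. All grafts were kept in the dark until day 3 and were back in the light on day 4, so that the 5 DAG groups differ from the earlier groups in light as well as in time, and these cannot be told apart.

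In pepper:tomato the pepper tissue of the junction lies above the cut, in tomato:pepper it lies below the cut, and in the self-graft it lies on both sides. A cut stem heals by forming callus at the wound, dividing its vascular cambium and differentiating new xylem and phloem across the junction. Transcription factors of the LBD and NAC families are known for roles in this kind of growth, LBD proteins at organ and vascular boundaries and NAC proteins in the differentiation of xylem cells. In grafts of the same plant the strands reconnect, while tomato and pepper are known as a poor match in which vascular reconnection fails.

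The tables hold 1 pooled FPKM value for each group. No spread between junctions can be computed from them, no test was run and no interval is given, read depth is unknown, and each difference is a description of 2 pooled values. The authors' own test columns were not used. A change is called when FPKM + 1 differs at least 4-fold, which is 2 on the log2 scale. Counts of members are set beside the share of all pepper genes with at least 1 FPKM in at least 1 group of that graft, which is named the background share. All 152 members passed that minimum in tomato:pepper and in the self-graft, and 151 passed it in pepper:tomato, and counts are over all 152. Background genes near that minimum cannot differ 4-fold on the FPKM + 1 scale and can hardly differ 2-fold. Members were chosen at 5 FPKM or more in the self-graft. Low genes thus lower the background shares of 4-fold calls and raise those within 2-fold. No background matched to the members in level was computed. In a heterograft FPKM is scaled over both species together, so the level of every pepper gene also moves with the amount of pepper RNA, and fewer pepper cells and less RNA per cell cannot be told apart.

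At 3 DAG the pepper shares of the heterografts turned against those at 1 and 5 DAG. Pepper genes made up 40.5%, 70.3% and 50.8% of summed FPKM in tomato:pepper at 1, 3 and 5 DAG, and 82.1%, 48.3% and 76.9% in pepper:tomato. The graft with less pepper signal at 1 and 5 DAG thus had more of it at 3 DAG. Levels at 3 DAG are printed as labelled, and the counts that use 3 DAG are given as labelled and with the 3 DAG groups of the heterografts exchanged. Comparisons of 5 with 1 DAG use no 3 DAG group and come before these counts. They take the labels at 1 and 5 DAG as given. The pepper shares alone do not show at which times labels might be exchanged, and only an exchange at 3 DAG was tried.

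As a check of the tissue, 10 pepper genes that mark cambium and xylem were picked from the study's list and looked up. The study lists further pepper genes of cambium and xylem, among them KNAT1, which were not looked up. At least 1 FPKM in at least 1 group was reached by 7 of 10 in tomato:pepper, 8 of 10 in pepper:tomato and 9 of 10 in the self-graft. WOX4 (CA04g18420), a regulator of cambium divisions in Arabidopsis, had 37.3, 8.41 and 99.4 FPKM in tomato:pepper at 1, 3 and 5 DAG. It had 29.0, 76.5 and 38.6 FPKM in pepper:tomato, and 56.5, 108 and 133 FPKM in the self-graft. WOX4 was thus measured in every group, while the VND6 copy CA03g15410 stayed under 1 FPKM in all 9 groups.

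In the self-graft, the median member had 5.44 FPKM at 1 DAG, 45.8 FPKM at 3 DAG and 39.4 FPKM at 5 DAG. At 1 DAG 4 members were listed at 0 FPKM, and 26 were under 1 FPKM there. The median log2 change was 2.80 for 3 over 1 DAG and 2.59 for 5 over 1 DAG, and 19 members were at least 16-fold higher at 3 DAG. At least 4-fold higher at 3 than at 1 DAG were 3.03% of the 17806 pepper genes tested in the self-graft, and 1.94% at 5 than at 1 DAG. Between 3 and 5 DAG, 92 members were lower and 60 higher at 5 DAG, all within the 2-fold bounds. Near the bounds, the smallest ratio of 5 over 1 DAG among members was 4.01 and the largest among genes that missed on this condition alone was 3.99. For 3 over 1 DAG these values were 4.01 and 3.94, and 106 genes missed on the 5 over 1 DAG ratio alone. As a group, the members held 0.33% of all pepper FPKM in the self-graft at 1 DAG, 2.4% at 3 DAG and 3% at 5 DAG. Without the 3 members highest at 5 DAG these shares were 0.238%, 1.22% and 1.66%.

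**Figure D1:**
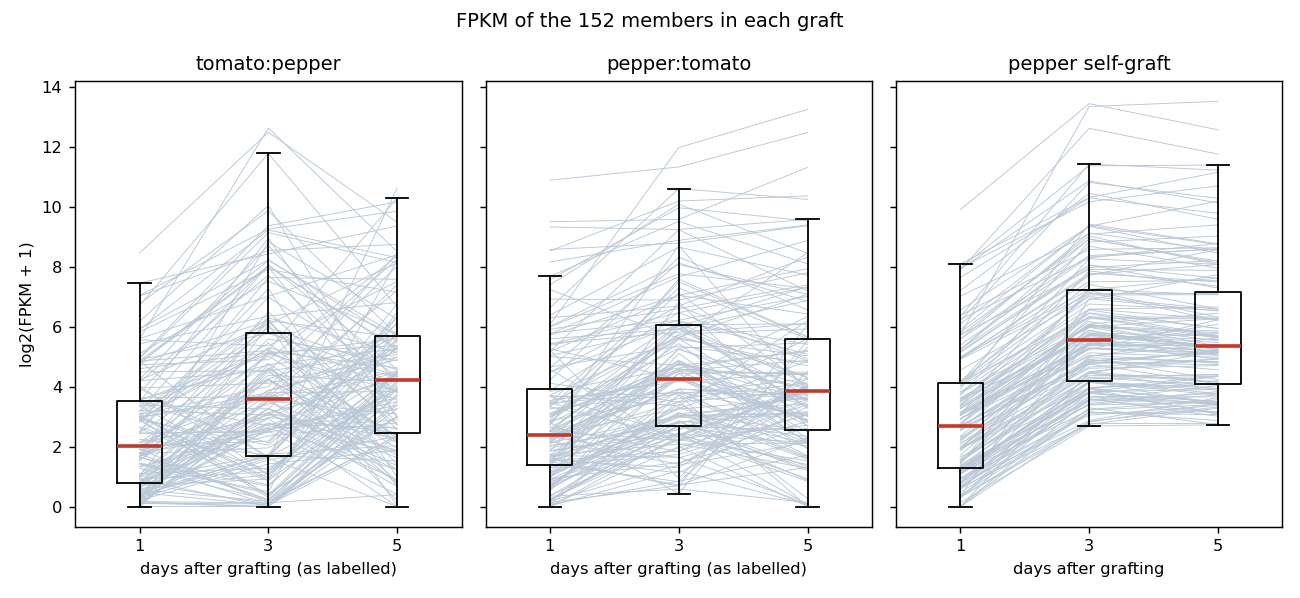
FPKM of the 152 members on a log2(FPKM + 1) scale (vertical axis) at 1, 3 and 5 DAG in tomato:pepper, pepper:tomato and the pepper self-graft. Grey lines join the values of a member, boxes span the quartiles with the median in red, and whiskers reach the last value within 1.5 box heights. The lines run together in the self-graft, where the choice fixed their course, and cross in both heterografts, where medians at 1, 3 and 5 DAG were 3.02, 11.1 and 17.6 FPKM in tomato:pepper and 4.27, 18.2 and 13.3 FPKM in pepper:tomato.

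The most abundant member at 5 DAG in the self-graft was CA04g20280, whose identifier the files pair with no name. It had 46.9, 6302 and 360 FPKM in tomato:pepper at 1, 3 and 5 DAG. In pepper:tomato it had 66.1, 4019 and 9707 FPKM, and in the self-graft 51.9, 10365 and 11700 FPKM. Its change of 5 over 1 DAG was larger in pepper:tomato (log2 7.18) than in tomato:pepper (log2 2.92). The next in abundance, CA02g17240, had 349, 5725 and 715 FPKM in tomato:pepper, 1887, 2564 and 5685 FPKM in pepper:tomato, and 955, 11076 and 6051 FPKM in the self-graft. Tomato:pepper thus had far less of both at 5 DAG than pepper:tomato had. CA05g17120 had the second largest change of 5 over 1 DAG among the unnamed members of the self-graft, with 0.241, 121 and 91.2 FPKM. Its values were 0.862, 2.33 and 106 FPKM in tomato:pepper and 0.515, 20.7 and 21.4 FPKM in pepper:tomato, so that it was over 4-fold higher at 5 than at 1 DAG in all 3 grafts.

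LBD4 (CA02g00820) was the only member that the study names. In Arabidopsis LBD4 acts at the boundary of phloem and procambium. It had 8.22, 7.28 and 39.1 FPKM in tomato:pepper at 1, 3 and 5 DAG, 0.955, 37.4 and 11.0 FPKM in pepper:tomato, and 5.70, 57.3 and 36.6 FPKM in the self-graft. At 5 over 1 DAG it was higher in each graft, by log2 2.12 in tomato:pepper, 2.61 in pepper:tomato and 2.49 in the self-graft. The pepper:tomato change rests on 0.955 FPKM at 1 DAG. That change was 3.39 with 0.1 FPKM added in place of 1 and 1.42 with 5 FPKM, beside 2.23 and 1.74 in tomato:pepper. At 5 DAG LBD4 was higher in tomato:pepper than in pepper:tomato, and at 3 DAG it was lower there as labelled and higher there with the exchange. A second pepper gene the study lists as LBD4, CA12g22480, was no member, with 75.2, 14.5 and 29.1 FPKM in the self-graft.

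A further 3 members had a transcription factor family in the part of the study's network table held here. CA02g28070, of the NAC family, had 0.747, 12.4 and 4.96 FPKM in tomato:pepper, 4.64, 3.62 and 15.3 FPKM in pepper:tomato, and 2.75, 18.1 and 19.2 FPKM in the self-graft. CA02g23810, of the C3H zinc finger family, had 0.38, 0.0322 and 3.87 FPKM in tomato:pepper, 0.184, 3.71 and 1.87 FPKM in pepper:tomato, and 0.589, 8.44 and 10.8 FPKM in the self-graft. CA10g05760, of the MYB-related family, had 0.572, 5.13 and 1.33 FPKM in tomato:pepper, 1.54, 2.33 and 7.47 FPKM in pepper:tomato, and 1.11, 11.0 and 9.68 FPKM in the self-graft. Each of these 3 genes was higher at 5 than at 1 DAG in both heterografts, with changes under 4-fold on the FPKM + 1 scale, which understates changes of low genes. With 0.1 FPKM added in place of 1, the C3H gene CA02g23810 passed 4-fold in both heterografts (log2 3.05 in tomato:pepper and 2.79 in pepper:tomato), the NAC gene CA02g28070 in tomato:pepper (2.58) and the MYB-related gene CA10g05760 in pepper:tomato (2.21). At 5 DAG the C3H gene and LBD4 were higher in tomato:pepper, and the NAC and MYB-related genes were lower there.

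Most members also had more FPKM at 5 DAG than at 1 DAG in the heterografts. In tomato:pepper 129 of 152 members (84.9%) were above 0 on the log2 scale, against a background share of 64.1% of 15743 pepper genes. At least 4-fold higher were 70 members, against a background share of 3.18%, which genes of low FPKM hold down. Their median log2 change was 1.83, beside 0.21 over all pepper genes tested. In pepper:tomato 138 members (90.8%) were above 0, against a background share of 36% of 16915 genes. At least 4-fold higher were 38 members, against a background share of 0.745%. The median there was 1.30, beside -0.18 over all genes tested. At least 4-fold lower at 5 DAG were 2 members in tomato:pepper, where the background share was 1.45%, and 1 member in pepper:tomato, where it was 1.15%. Measured from the median of all pepper genes, the members' medians were 1.62 in tomato:pepper and 1.48 in pepper:tomato. The self-graft value on the same scale was 2.56, which the choice of members holds high, so nothing is read from the difference.

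The 4-fold calls fell on partly different members in the heterografts. Both heterografts called 21 members, tomato:pepper alone 49, pepper:tomato alone 17 and neither 65. Over the 15363 pepper genes tested in both, the shares of these classes were 0.247%, 2.67%, 0.547% and 96.5%. Of the 65 members in neither, 43 were above 0 in both heterografts and 4 were below 0 in both. The classes were set by the 1 and 5 DAG values of the heterografts. This largely fixes the next heterograft medians, which are given as a description only. Members called in tomato:pepper alone had medians of 21.9 FPKM at 5 DAG and 1.71 FPKM at 1 DAG in tomato:pepper, against 6.48 FPKM at 5 DAG and 3.39 FPKM at 1 DAG in pepper:tomato. Members called in pepper:tomato alone had medians of 4.49 FPKM at 5 DAG and 1.93 FPKM at 1 DAG in tomato:pepper, against 31.6 and 4.26 FPKM in pepper:tomato. In the self-graft these classes were alike at 5 DAG, with medians of 34.4 FPKM for the members of tomato:pepper alone and 40.2 FPKM for those of pepper:tomato alone.

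**Figure D2:**
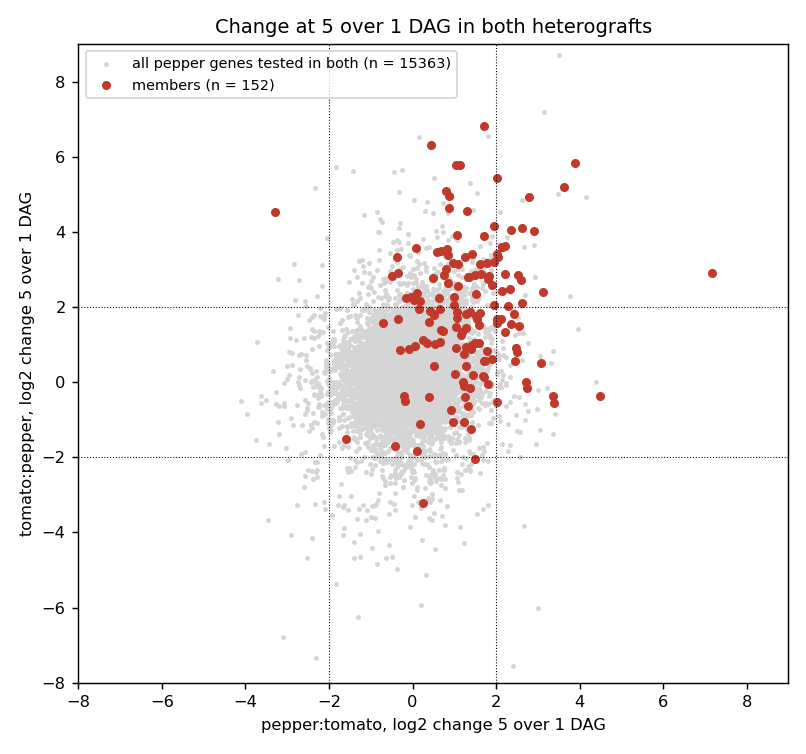
Log2 change of FPKM + 1 at 5 over 1 DAG in pepper:tomato (horizontal axis) and tomato:pepper (vertical axis), for the 152 members (red) and all 15363 pepper genes tested in both (grey), with dotted lines at 4-fold. The members lie mostly above and to the right of the grey cloud, with 70 of them past the upper dotted line, 38 past the right one and 21 past both.

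The largest changes show how far single members went in each direction. CA01g27630 had the largest rise in tomato:pepper among the unnamed members, with 297 FPKM at 5 DAG, against 1.63 FPKM at 1 DAG, and 5.35 and 0.928 FPKM at these times in pepper:tomato. Its neighbour by identifier, CA01g27620, had 347 FPKM at 5 DAG, against 3.39 FPKM at 1 DAG in tomato:pepper, and 29.2 and 21.2 FPKM in pepper:tomato. In the self-graft both were high from 3 DAG, with 5.50, 150 and 196 FPKM for CA01g27630 and 30.6, 208 and 379 FPKM for CA01g27620. In the opposite direction, CA01g13070 had 6.76 FPKM at 5 DAG, against 71.0 FPKM at 1 DAG in tomato:pepper (log2 -3.21), and 763 and 640 FPKM in pepper:tomato. CA03g28780 had 5.66 FPKM at 5 DAG, against 26.5 FPKM at 1 DAG in tomato:pepper (log2 -2.05), and 167 and 59.1 FPKM in pepper:tomato. These 2 members were the only ones at least 4-fold lower in tomato:pepper.

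In pepper:tomato, CA04g13490 had the largest rise after CA04g20280, with 66.1 FPKM at 5 DAG, against 2.00 FPKM at 1 DAG (log2 4.48). In tomato:pepper it stayed low at both times, with 0.587 FPKM at 5 DAG and 1.06 FPKM at 1 DAG. CA05g02110 was the only member at least 4-fold lower in pepper:tomato, with 1.42 FPKM at 5 DAG, against 22.8 FPKM at 1 DAG (log2 -3.29), and in tomato:pepper it had 21.9 FPKM at 5 DAG and was listed at 0 at 1 DAG. CA03g05850 had the next largest fall in pepper:tomato among members with at least 5 FPKM, 6.48 FPKM at 5 DAG against 9.52 FPKM at 1 DAG, which is under 2-fold. It had 37.3 FPKM at 5 DAG and 4.41 FPKM at 1 DAG in tomato:pepper.

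**Figure D3:**
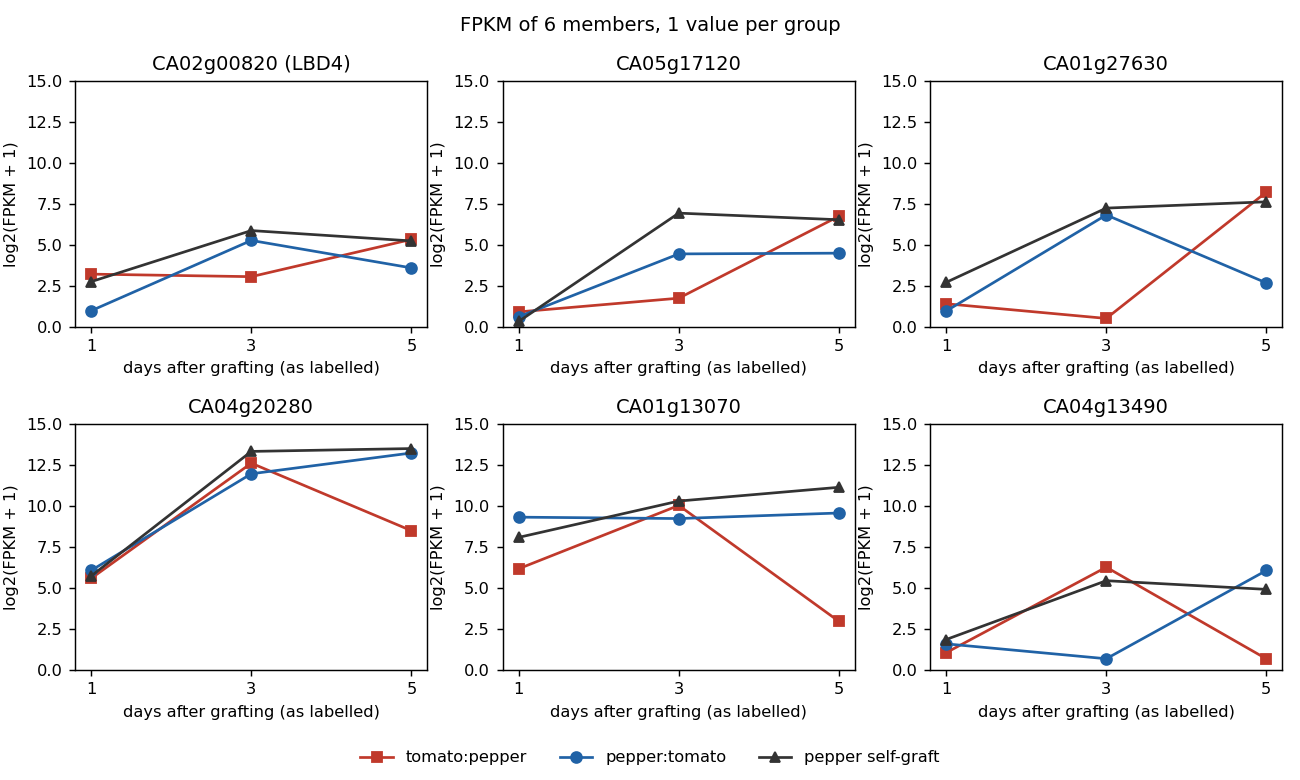
Log2(FPKM + 1) (vertical axes) of 6 members at 1, 3 and 5 DAG (horizontal axes) in tomato:pepper (red squares), pepper:tomato (blue circles) and the pepper self-graft (black triangles), with 1 pooled value per group and 3 DAG as labelled. The self-graft lines climb to 3 DAG in every panel. In CA01g27630 the lowest graft is the red one at 3 DAG (0.413 FPKM) and the blue one at 5 DAG (5.35 FPKM). In CA04g13490 it is the blue one at 3 DAG (0.597 FPKM) and the red one at 5 DAG (0.587 FPKM).

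At 3 over 1 DAG as labelled, 68 members were at least 4-fold higher in tomato:pepper (background share 6.15%) and 62 in pepper:tomato (background share 1.79%). At least 4-fold lower were 9 members in tomato:pepper, where 1.12% of all genes were, and 3 in pepper:tomato, where 12.7% were. The members' median was 1.47 in tomato:pepper, beside 0.67 over all pepper genes, and 1.73 in pepper:tomato, beside -0.84. With the 3 DAG groups exchanged, 73 members were at least 4-fold higher in tomato:pepper (background share 1.62%) and 38 in pepper:tomato (background share 1.59%). Then no member was 4-fold lower in tomato:pepper (background share 0.256%) and 1 was in pepper:tomato (6.96%). Above 0 were 148 members (97.4%) in tomato:pepper (background share 75.4%) and 120 (78.9%) in pepper:tomato (background share 32%). The members' median thus lay above that of all pepper genes at 3 DAG under either reading, with a median log2 change of 1.90 in tomato:pepper and 1.13 in pepper:tomato after the exchange.

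How many members were kept between 3 and 5 DAG depended on the reading of the labels. Under both readings and in both heterografts, the members' share was below the background share. Background genes near 1 FPKM stay within 2-fold on the FPKM + 1 scale almost by construction, so nothing is read from this difference. As labelled, 35 of 152 members (23%) stayed within 2-fold in tomato:pepper, against a background share of 58.2%, and 63 (41.4%) in pepper:tomato, against 59.2%. In tomato:pepper 54 members were at least 4-fold higher at 5 than at 3 DAG and 40 at least 4-fold lower, where the background shares were 5.56% and 9.12%. In pepper:tomato 12 were higher and 22 lower, where the shares were 6.77% and 1.04%. With 3 DAG exchanged, 97 members (63.8%) stayed within 2-fold in tomato:pepper, against 87.3% of all genes, and 89 (58.6%) in pepper:tomato, against 75.6%. Then 6 members were 4-fold higher and 14 lower in tomato:pepper (background shares 1.02% and 1.41%), and 12 higher and 4 lower in pepper:tomato (1.72% and 0.5%). The self-graft share within 2-fold over all pepper genes was 89.4%, and all members met this bound by choice.

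The 3 fold conditions of the choice, applied within a heterograft, were met by 11 members in tomato:pepper and 8 in pepper:tomato as labelled. Of all pepper genes tested, 0.152% met them in tomato:pepper and 0.124% in pepper:tomato. With 3 DAG exchanged, 37 members met them in tomato:pepper (background share 0.821%) and 18 in pepper:tomato (0.244%). Asking also for 5 FPKM at 3 and 5 DAG left 10 members in tomato:pepper (background share 0.133%) and 8 in pepper:tomato (0.118%) as labelled. With the exchange it left 35 in tomato:pepper (0.788%) and 18 in pepper:tomato (0.238%). A minority of the members thus kept the whole self-graft course in either heterograft, under both readings. The choice makes every member pass these bounds in the self-graft, some of them narrowly, so nothing is read from the lower counts in the heterografts.

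The rank of the members among the 30088 pepper genes does not depend on the scaling of FPKM. It does depend on how many pepper genes were detected. At least 1 FPKM in at least 1 group was reached by 15743 in tomato:pepper, 16915 in pepper:tomato and 17806 in the self-graft. Their median percentile was 65.6, 74.1 and 84.5 in tomato:pepper at 1, 3 and 5 DAG, 56.9, 83.3 and 72.6 in pepper:tomato, and 55.4, 82.3 and 81.3 in the self-graft. With 3 DAG exchanged, the middle value was 83.3 in tomato:pepper and 74.1 in pepper:tomato. On that reading the median percentiles at 3 and 5 DAG were near those of the self-graft in tomato:pepper and lower in pepper:tomato. At 1 DAG the percentile in tomato:pepper was already above that of the self-graft, though the members' median was lower there (3.02 against 5.44 FPKM). Ranks are thus not alike between grafts, and nothing is read from the match.

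The members split by heterograft at 5 DAG. At least 4-fold higher in tomato:pepper than in pepper:tomato were 35 members (background share 2.3% of 17295 genes with at least 1 FPKM in at least 1 heterograft group), and at least 4-fold higher in pepper:tomato were 27 (background share 8.07%). The remaining 90 were less than 4-fold apart. Measured from the median of all pepper genes, the counts were 55 higher in tomato:pepper and 17 higher in pepper:tomato. The members' median difference, tomato:pepper over pepper:tomato, was log2 0.24, beside -0.73 over all genes tested, and its SD over the members was 2.42, beside 1.16 over all genes. A wide split was found in other self-graft lists too. Of the members 40.8% were 4-fold apart in either direction, beside 40.4% of the 228 genes raised at 3 DAG that came back by 5 DAG (SD 2.27) and 66.3% of the 89 genes raised late (SD 2.56). At 1 DAG fewer members were 4-fold apart, with 6 higher in tomato:pepper (background share 0.544%) and 22 higher in pepper:tomato (background share 15.8%).

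In the self-graft both sets of members were high at 3 and 5 DAG, as the choice requires. The 35 members higher in tomato:pepper had medians of 5.08, 37.6 and 37.5 FPKM in the self-graft at 1, 3 and 5 DAG, and the 27 higher in pepper:tomato had 9.08, 66 and 54.8 FPKM. Between 3 and 5 DAG they differed within the bounds of the choice, since 18 of the 35 were higher at 5 DAG (median log2 0.0091) and 5 of the 27 (median log2 -0.34). In the heterografts their courses crossed. The 35 had medians of 3.39, 1.98 and 44.7 FPKM in tomato:pepper and 1.79, 20.7 and 3.76 FPKM in pepper:tomato as labelled. The 27 had medians of 6.07, 76 and 3.83 FPKM in tomato:pepper and 12, 10.2 and 47.5 FPKM in pepper:tomato. The grouping used the 5 DAG values, which largely fixes the next counts, and they are given as a description only. Of the 35, 29 were at least 4-fold higher at 5 than at 1 DAG in tomato:pepper and 5 in pepper:tomato, and 20 had more FPKM in tomato:pepper at 5 DAG than in the self-graft, though these tables were normalised separately. Of the 27, 2 were 4-fold higher in tomato:pepper and 12 in pepper:tomato, and 14 were below 0 at 5 over 1 DAG in tomato:pepper.

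**Figure D4:**
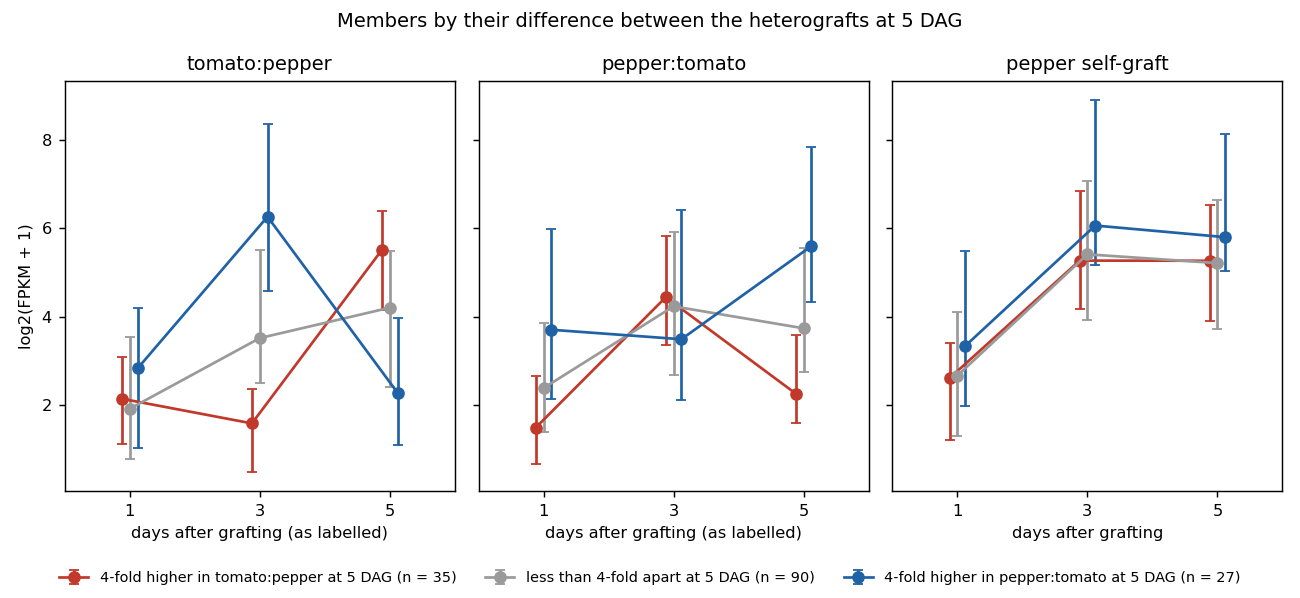
Median log2(FPKM + 1) (vertical axis, bars from the lower to the upper quartile over members) at 1, 3 and 5 DAG in tomato:pepper, pepper:tomato and the pepper self-graft, for the 35 members at least 4-fold higher in tomato:pepper at 5 DAG (red), the 27 at least 4-fold higher in pepper:tomato (blue) and the other 90 (grey). In the self-graft all 3 lines are higher at 3 and 5 DAG than at 1 DAG, as the choice requires, and in each heterograft the red and blue lines change places between 3 and 5 DAG as labelled. The places at 5 DAG were fixed by the grouping, and those at 1 and 3 DAG were not.

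At 3 DAG, whose libraries took no part in this grouping, the sets stood apart again, in the opposite direction as labelled. Of the 35 members higher in tomato:pepper at 5 DAG, 33 were lower in tomato:pepper than in pepper:tomato at 3 DAG, 24 of them by 4-fold. All 27 members higher in pepper:tomato at 5 DAG were lower in pepper:tomato at 3 DAG, 14 of them by 4-fold. With the 3 DAG groups exchanged, the same 33 and 27 members differed in the same direction at both times. The same turn was found over all pepper genes. Of the 397 genes 4-fold higher in tomato:pepper at 5 DAG, 49.1% were 4-fold lower there at 3 DAG, and of the 1396 genes 4-fold higher in pepper:tomato at 5 DAG, 35.7% were 4-fold lower there at 3 DAG. Across the 152 members, the difference between heterografts at 3 DAG and that at 5 DAG had a Pearson correlation of -0.82 (Spearman -0.84), beside -0.76 (Spearman -0.71) over the 17295 genes. These are descriptions over genes of 4 pooled groups, which share gene models and scaling within a group but no library between 3 and 5 DAG. Exchanging the 3 DAG groups reverses the sign of the 3 DAG difference of every gene, so the correlation is then positive and of the same size.

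The difference at 1 DAG leaned the same way as at 5 DAG. Of the 35 members higher in tomato:pepper at 5 DAG, 26 were also higher there at 1 DAG, and of the 27 higher in pepper:tomato, 25 were higher there at 1 DAG. The sign at 1 and 5 DAG was the same in 73.7% of members and in 83.1% of all genes tested, whose median difference at 1 DAG was already -1.05, so the members' share was not above the background. Across members the correlation of the 1 and 5 DAG differences was 0.55 (Spearman 0.62), and that of the 1 and 3 DAG differences as labelled was -0.55 (Spearman -0.61). Over all genes these were 0.56 and -0.35 by Pearson, so the turn at 3 DAG is no property of the members alone. The vascular markers also differed between times and grafts. Summed over the 10 genes picked, without LBD4 (CA02g00820), itself a member, they had 49.2, 17.6 and 123 FPKM in tomato:pepper, 130, 92.4 and 63.5 FPKM in pepper:tomato, and 169, 148 and 213 FPKM in the self-graft, at 1, 3 and 5 DAG as labelled. With the exchange the 3 DAG sums were 92.4 FPKM in tomato:pepper and 17.6 FPKM in pepper:tomato. WOX4 (CA04g18420) and the second LBD4 gene, CA12g22480, made up most of each sum. These genes went different ways in the self-graft, where WOX4 had 56.5 FPKM at 1 DAG and 133 FPKM at 5 DAG. CA12g22480 had 75.2 and 29.1 FPKM there, so the sums do not stand for the listed genes one by one. Of all 10 listed genes, 5 were higher in tomato:pepper at 5 DAG, and 3 were at 3 DAG as labelled, against 7 with the exchange. Their part in the members' split was not tested.

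**Figure D5:**
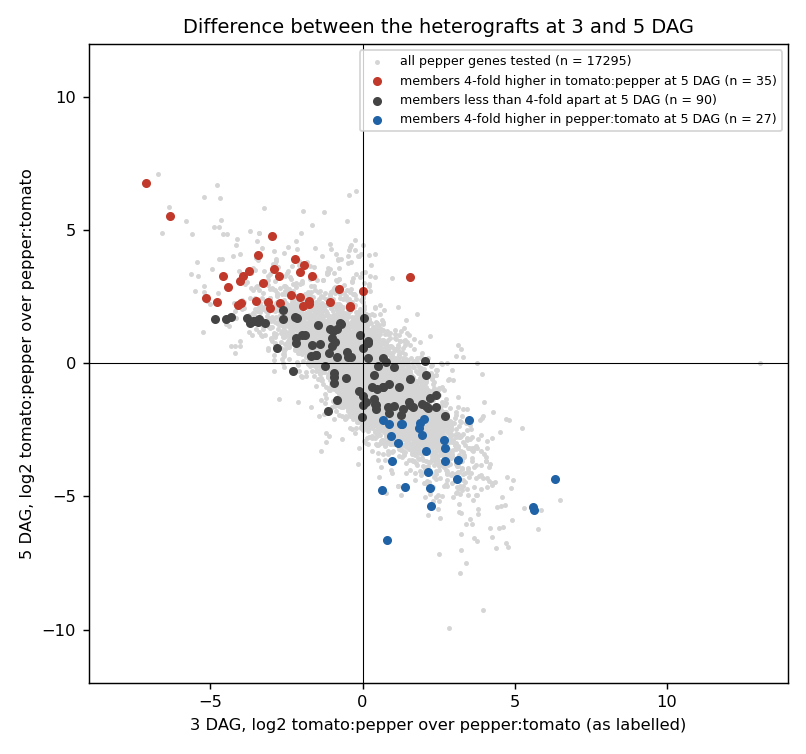
Log2 difference of FPKM + 1, tomato:pepper over pepper:tomato, at 3 DAG as labelled (horizontal axis) and at 5 DAG (vertical axis), for all 17295 pepper genes tested (grey) and the members, coloured by their difference at 5 DAG. Members and other genes run from the upper left to the lower right, with Pearson correlations of -0.82 over members and -0.76 over all genes, and exchanging the 3 DAG groups mirrors the picture from left to right.

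Members and self-graft genes with a different later course were compared in the heterografts. By the same minimum and 4-fold bound, 228 pepper genes of the self-graft were raised at 3 DAG and came back at least 2-fold by 5 DAG, and 89 late genes were raised at 5 DAG and at least 2-fold above their level at 3 DAG. At 5 over 1 DAG in tomato:pepper, 46.1% of the members were at least 4-fold higher, beside 5.26% of the genes that came back and 75.3% of the late genes. The medians there were 1.83 for the members, -0.32 for the genes that came back and 3.58 for the late genes. In pepper:tomato the 4-fold shares were 25% of the members, 11% of the genes that came back and 13.5% of the late genes, with medians of 1.30, 0.76 and 0.52. At least 1 FPKM in pepper:tomato was reached by 151 of 152 members, 227 of 228 genes that came back and 66 of 89 late genes. Genes under it cannot be called, which lowers the share of the late genes. The members lay between the other lists in tomato:pepper and above both in pepper:tomato. With 1 pooled value a group these differences were not tested.

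Of the members, 39 were targets in the study's network of the pepper self-graft, and the same 39 at both 3 and 5 DAG, out of 75 measured genes that the network holds as targets at both times. None was a target at 1 DAG, and LBD4 was also a regulator in it at 3 and 5 DAG. The study built this network on the samples used for the choice of members, so the overlap is no independent evidence. In the heterografts, which the choice did not use, 13 of the 39 were at least 4-fold higher at 5 than at 1 DAG in tomato:pepper, with a median log2 change of 1.77 and 34 above 0, and 10 in pepper:tomato, with a median of 1.49 and 37 above 0. Over all members the 4-fold counts were 70 of 152 (46.1%) in tomato:pepper and 38 of 152 (25%) in pepper:tomato, beside background shares of 3.18% and 0.745%. Above 0 were 84.9% of all members in tomato:pepper and 90.8% in pepper:tomato, beside background shares of 64.1% and 36%. Of the 39, 5 were among the 35 members higher in tomato:pepper at 5 DAG and 7 among the 27 higher in pepper:tomato, where 39 of 152 were targets overall.

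Some members were neighbours by identifier, which in these gene models runs along each chromosome. Within 5 identifiers of another member lay 25 of 152 members (16.4%), beside 5% of 17654 other pepper genes tested in the self-graft that had a member in that range. They formed 11 pairs and 1 run of 3. In 9 of these 12 sets all members leaned the same way between the heterografts at 5 DAG. The share of such sets among other neighbouring genes was not computed, so nothing is read from this count. The run of 3 was CA12g20820, CA12g20840 and CA12g20870. CA12g20820 had 0.724, 18.1 and 52.9 FPKM in tomato:pepper, 9.83, 51.1 and 18.8 FPKM in pepper:tomato, and 4.81, 75.9 and 75.7 FPKM in the self-graft. CA12g20840 had 0.0548, 35.1 and 23.7 FPKM in tomato:pepper, 7.63, 21.6 and 20.3 FPKM in pepper:tomato, and 1.69, 95.3 and 75.1 FPKM in the self-graft. CA12g20870 was lower, with 0.153, 1.68 and 2.68 FPKM in tomato:pepper, 1.43, 4.40 and 0.901 FPKM in pepper:tomato, and 0.536, 5.81 and 5.83 FPKM in the self-graft. Whether neighbouring members are near-identical copies whose reads were shared is unknown here, so their values count as uncertain.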

How the data were processed

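Messenger RNA of graft junctions was sequenced as single-end reads from 4 independent plants per group. The authors trimmed, aligned (HISAT2) and quantified (Cufflinks) the reads with TuxNet at default settings, against the pepper genome CM334 for the self-graft and against the joined pepper and tomato genomes for the heterografts. Tool versions are not given in the sources used here. The FPKM values were deposited by the authors as 1 pooled value per group, in a table for the self-graft and one for the heterografts that were normalised separately. A further 18 columns with the authors' log2 fold changes and FDR values were not used, and neither was the tomato self-graft table. Depth per sample is unknown.

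Groups followed the sample titles. Ratios were computed on FPKM + 1, and background shares over pepper genes with at least 1 FPKM in at least 1 group of the graft. With 1 value per group no test was run. Alternatives were pseudocounts of 0.1 and 5 FPKM, filters of 0 and 5 FPKM, a call at 2-fold, members at 8-fold, pepper genes rescaled to their own total or centred on their median, and 3 DAG groups exchanged. Members and lists were chosen with earlier results of these data known. Members named are those with a name or family in the study, and by a fixed rule the 2 most abundant, the 2 with the largest self-graft change, the 2 largest rises and falls per heterograft at 5 over 1 DAG, and the longest run of neighbours. None of the 30088 identifiers matched the RefSeq gene table (0 matched), so no other names, sequences or coordinates are given. As a check of the code, the rule was run on simulated data, where 200 of 200 genes raised 8-fold were recovered. The raised genes had at least 5 FPKM at 1 DAG and little added noise. The recovery therefore says nothing on calls near 4-fold or at low FPKM. Python 3.11.15, pandas 2.3.3, numpy 2.4.6 and matplotlib 3.10.9 were used.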

Additional observations from a re-analysis of the deposited data

How the results depend on the processing

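No paired analysis was possible because the tables hold 1 pooled value per group, and for the same reason no replicate could be left out. Of the counts under the alternatives, 53 stayed within 1.5 times the value reported and 37 did not. The number of members was 65 with a pseudocount of 5 FPKM in the choice and 37 with an 8-fold bound, all of them among the 152. With members chosen at 8-fold, 4-fold higher at 5 over 1 DAG were 25 in tomato:pepper and 13 in pepper:tomato, at 3 over 1 DAG 24 and 19, within 2-fold at 5 over 3 DAG 8 and 14, and with the whole pattern 7 and 4. With a pseudocount of 5 FPKM, 41 and 15 members were 4-fold higher at 5 over 1 DAG in tomato:pepper and pepper:tomato, 33 at 3 over 1 DAG in pepper:tomato, and 7 and 3 had the whole pattern. With 0.1 FPKM, 15 members had the whole pattern in pepper:tomato. A call at 2-fold gave 98 members at 5 over 1 DAG and 97 at 3 over 1 DAG in pepper:tomato, whole patterns of 25 in tomato:pepper and 37 in pepper:tomato, and classes of 65 in both, 33 in pepper:tomato alone and 14 in neither; it does not bear on the 2-fold bound of 5 over 3 DAG. Rescaling gave 13 whole patterns in pepper:tomato, and centring gave 7 in tomato:pepper and 14 in pepper:tomato.

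Exchanging the 3 DAG groups gave 38 members 4-fold higher at 3 over 1 DAG in pepper:tomato, 97 within 2-fold at 5 over 3 DAG in tomato:pepper, and whole patterns of 37 in tomato:pepper and 18 in pepper:tomato. The median log2 change of 5 over 3 DAG turned to -0.16 in tomato:pepper, where it was 0.45 as labelled, and to 0.030 in pepper:tomato, where it was -0.40. Within 1 identifier, 16 members had a neighbour. Alternatives for the split at 5 DAG were chosen after seeing the data. The counts higher in tomato:pepper and higher in pepper:tomato were 55 and 17 with centring, 59 and 53 at 2-fold, and 20 and 17 with a pseudocount of 5 FPKM, so which set is larger did not change while their sizes did, except that with 0.1 FPKM both were 37. Of the other values, 177 kept within 1.5 times (counts) or 0.5 on the log2 scale, 79 did not, and 2, the medians above, changed sign. The causes were not tested, beyond what each setting changes by construction. Low FPKM limits the ratios, since 47 members were under 1 FPKM in tomato:pepper at 1 DAG and 31 in pepper:tomato.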
